A study of Mus musculus with 4 samples.

Results

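Goblet cells secrete the mucus that covers the colon surface. The mucin *Muc2* forms the gel, and smaller secreted proteins join it in the granule. They descend from crypt stem cells through a secretory progenitor that requires the transcription factor *Atoh1*, and they mature while they move from the crypt base towards the surface. Between the Lgr5+ stem cells at the crypt base sit the deep crypt secretory cells, a related secretory cell type marked by *Reg4* and *Kit* that takes in the colon the place Paneth cells have in the small intestine.

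Here, 10 genes of these cells were followed, 8 of goblet cells (*Muc2*, *Zg16*, *Fcgbp*, *Tff3*, *Spink4*, *Agr2*, *Spdef* and *Atoh1*) and 2 of deep crypt secretory cells (*Reg4* and *Kit*). They were chosen by gene name among the non-control probes, which gave 13 probes on 22 spots, out of 41174 probes and 27343 names on 43379 spots for the whole array. *Muc2* had 3 probes, *Fcgbp* had 2 probes, and the single *Kit* probe was printed on 10 spots.

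RNA was hybridised to 4 dual-color Agilent arrays from male C57BL/6 mice of 6 to 8 weeks. For the sorted cells, *Axin2CreErt2/Rosa26-tdTomato* mice were given tamoxifen (4 mg per 25 g bodyweight), which switches on tdTomato in cells that use the *Axin2* promoter at that time and in their descendants. At 24 h, tdTomato-positive (Axin2+) and tdTomato-negative (Axin2-) colon epithelial cells were sorted, pooled from 3 mice each and compared on 2 arrays with the dyes reversed. Both arrays hold the same 2 pools and are 1 replicate, so no p-value is given for them. For the knockout, *Myh11CreErt2/Rspo3 fl/fl* mice (*Rspo3* KO) were compared with *Myh11CreErt2/Rspo3+/+* littermates 2 weeks after tamoxifen, with 1 mouse per channel, 2 pairs of mice and the dyes reversed between the pairs. Controls thus carry the same Cre and received tamoxifen, and Cre acts in cells that use the *Myh11* promoter (smooth muscle and myofibroblasts) and not in the epithelium. The labels name distal colon for these arrays, and the methods name colon. Changes in the number of secretory cells and in RNA per cell cannot be told apart in either experiment.

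The probes below carry the results. The 3 *Muc2* probes, which start at bases 548, 1986 and 6898 of the mRNA, gave ratios of different size, the 2 *Fcgbp* probes stand in for each other where 1 spot was lost, and *Zg16* and *Reg4* hold the lowest ratio of the goblet and of the deep crypt secretory genes in the sorted cells. All are 60 bases long, are given 5′ to 3′ in the sense of the mRNA as listed in the array files, and are in lower case throughout.

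Muc2, base 548: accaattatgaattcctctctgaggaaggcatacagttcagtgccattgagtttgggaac

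Muc2, base 1986: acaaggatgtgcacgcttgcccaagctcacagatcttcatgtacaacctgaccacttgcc

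Muc2, base 6898: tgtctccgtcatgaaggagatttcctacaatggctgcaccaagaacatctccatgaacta

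Fcgbp, base 7468: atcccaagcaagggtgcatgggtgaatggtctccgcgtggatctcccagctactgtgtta

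Fcgbp, base 7667: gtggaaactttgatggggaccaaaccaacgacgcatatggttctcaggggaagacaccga

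Zg16, base 409: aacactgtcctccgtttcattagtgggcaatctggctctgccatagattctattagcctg

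Reg4, base 541: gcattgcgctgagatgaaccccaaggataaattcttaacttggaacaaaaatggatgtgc

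On mm9, the build of the array files, the *Muc2* probe at base 1986 lies at chr7:148883009-148883068 and the one at base 6898 at chr7:148940000-148940059, both on the plus strand. The *Muc2* probe at base 548 is split over chr7:148879101-148879252 and that of *Reg4* over chr3:98037005-98040251, spans longer than the probe. The *Fcgbp* probe at base 7667 lies at chr7:28905517-28905576 on the plus strand, and the *Zg16* probe at chr7:134193837-134193896 on the minus strand.

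To ask where secretory gene expression lies relative to the Wnt-responsive crypt cells, Axin2+ cells were first compared with Axin2- cells. In Axin2+ cells, 9 of the 10 genes had a lower signal on both arrays and 1, *Muc2*, a higher one. Agreement between these arrays of the same pools was common, with Pearson's r of 0.925 between their log2 ratios over all genes. *Zg16*, *Fcgbp*, *Reg4*, *Tff3* and *Spink4* had a mean ratio past 1.5-fold and were lower on each array, that is 5 of 10 genes, where 6.92% of the 15887 measured genes met this rule on the lower side, 7.86% on the higher side and 14.8% on either. No member met it on the higher side. Over the 10 genes, the log2 ratios of Axin2+ over Axin2- cells had a median of -0.88 for array 1 and -0.79 for array 2, against 0.021 and -0.026 over all genes measured. As a check on the sort, *Axin2* itself had log2 ratios of 1.35 and 1.30, the stem cell gene *Lgr5* of 1.497 and 1.559, and the surface enterocyte keratin *Krt20* of -3.01 and -2.77. The signal of all 13 probes was well above background in either channel on each array.

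*Zg16*, which encodes a lectin-like mucus protein that binds Gram-positive bacteria, had the lowest ratio. Its normalised channel level (log2) was 16.26 and 16.06 in Axin2- cells and 13.51 and 13.41 in Axin2+ cells, which gave log2 ratios of -2.75 and -2.65, a signal 6.505-fold lower in Axin2+ cells. Both Axin2- values were far above both Axin2+ values. *Fcgbp*, a large mucus protein that is bound to the mucin network, followed with levels of 14.98 and 14.98 in Axin2- cells and 13.11 and 13.11 in Axin2+ cells, 3.65-fold lower. Its second, dimmer probe gave log2 ratios of -1.79 and -2.08, on either side of the -1.87 of the bright probe.

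*Reg4*, a secreted lectin-like protein and a marker of deep crypt secretory cells, had levels of 14.32 and 14.35 in Axin2- cells and 13.03 and 12.99 in Axin2+ cells. The log2 ratios of -1.29 and -1.36 correspond to a 2.51-fold lower signal in Axin2+ cells. Next to it came 2 small secreted goblet proteins. The trefoil peptide *Tff3*, which takes part in mucosal repair, had log2 ratios of -1.33 and -1.03 (2.27-fold lower), and the protease inhibitor *Spink4* had -1.26 and -1.06 (2.24-fold lower). The arrays' ranges of *Reg4*, *Tff3* and *Spink4* overlapped, so that these 3 genes had no order among themselves, while *Zg16* and *Fcgbp* lay below them and apart from each other by at least 0.51.

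The transcription factors and the folding enzyme formed a group nearer to 0. *Spdef*, which drives goblet cell maturation, had log2 ratios of -0.49 and -0.33, and *Atoh1*, which is needed for all secretory lineages, had -0.19 and -0.55. *Agr2*, the disulfide isomerase of the endoplasmic reticulum that mucin folding depends on, had -0.13 and -0.33. *Kit*, the receptor of stem cell factor, had -0.0016 and -0.37. The ranges of *Spdef*, *Atoh1*, *Agr2* and *Kit* overlapped from each to the next, all means were within 1.5-fold, and the group was separated from *Spink4* by 0.58. With median centring in place of loess, all genes measured had medians of 0.76 on array 1 and -0.75 on array 2. The means of *Spdef* (-0.63) and *Agr2* (-0.70) were then past 1.5-fold, but not with both arrays alike. With the software ratios *Agr2* had -0.50.

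For *Kit*, the 10 spots show how much of this spread is spot noise. On array 1 they lay between -0.062 and 0.062 (SD 0.034), and on array 2 between -0.44 and -0.32 (SD 0.037), with no overlap. The arrays of the same RNA thus differed by more than the spots of 1 array. Over 137 measured probes that are printed on 10 spots, the median SD between spots was 0.046 on array 1 and 0.055 on array 2, and over all genes the median SD between the arrays was 0.087, against 0.26 for *Kit* and *Atoh1* and 0.21 for *Tff3*.

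*Muc2* stood apart from the other goblet genes. Its brightest probe, at base 6898, had levels of 14.81 and 14.85 in Axin2- cells and 15.11 and 15.20 in Axin2+ cells, with log2 ratios of 0.30 and 0.34, a 1.25-fold higher signal in Axin2+ cells. The probe at base 1986 gave 0.81 and 0.70 and the probe at base 548 gave 0.25 and 0.19, so that all 3 probes were higher on both arrays but differed in size by more than the arrays did. The distance between *Muc2* and *Zg16* was 3.05 on array 1 and 3.00 on array 2. The direction of *Muc2* held under 11 of 12 other settings and turned under 1. These settings are not all separate, since the software ratios and the value table gave the same mean of 0.17. With each array centred on its median in place of loess, *Muc2* had log2 ratios of 1.29 on array 1 and -1.45 on array 2. All genes measured had medians of 0.76 and -0.75 there. The mean of *Muc2* was -0.080, with *Kit* next to it at -0.17. Over 2600 transcripts with 2 measured probes at least 1000 bases apart, the upstream probe had the higher ratio in 31.6% on array 1 and in 40% on array 2. The middle *Muc2* probe had a higher ratio than the probe upstream of it and than the probe downstream of it, and the part of probe position in these ratios was not tested.

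**Figure D1:**
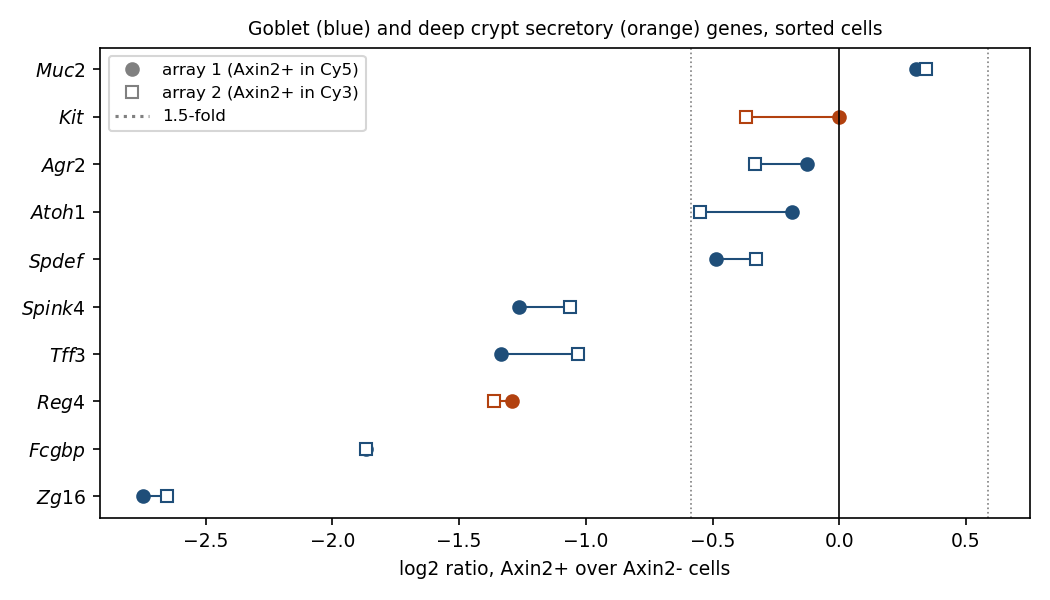
The log2 ratio of Axin2+ over Axin2- cells (horizontal axis) is plotted for each of the 10 genes on array 1 (filled circles) and array 2 (open squares), with goblet genes in blue, deep crypt secretory genes in orange and dotted lines at 1.5-fold. *Zg16*, *Fcgbp*, *Reg4*, *Tff3* and *Spink4* lie beyond the lower line on both arrays, 4 genes lie between it and 0, and *Muc2* lies at 0.30 and 0.34, a direction that turns to -0.080 with median centring.

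The 2 deep crypt secretory genes did not move as a pair against the goblet genes. The *Reg4* ratio was below that of *Kit* by 1.29 on array 1 and by 0.99 on array 2, and both lay inside the span of the goblet genes. The median of *Reg4* and *Kit* minus the median of the 8 goblet genes was 0.23 on array 1 and -0.076 on array 2, opposite signs on 2 arrays of the same RNA. The other genes listed for deep crypt secretory cells were close to 0. The Notch ligands *Dll1* (0.019 and 0.093) and *Dll4* (-0.017 and -0.13), the growth factor *Egf* (-0.21 and -0.13) and the surface glycoprotein *Cd24a* (0.026 and 0.0028) were all within 1.5-fold, and 0 of the 4 were past it. *Reg4* was thus the only 1 of these 6 genes past 1.5-fold.

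Other goblet cell products were mostly lower in Axin2+ cells as well. Of 13 measured genes of this list, 12 were lower on both arrays, 6 of them past 1.5-fold, and the median of the mean log2 ratios was -0.51. The lowest were *Clca1*, a secreted metalloprotease of the mucus, at -2.77 and -2.96, and *Retnlb*, the antibacterial protein RELMβ, at -1.93 and -1.65. The inflammasome sensor *Nlrp6* (0.42 and 0.35) was higher on both arrays, and *Muc5ac*, the gastric and airway mucin, had -0.080 and -0.20 at a dim signal. Of 16 measured genes of mucin O-glycosylation, 10 were lower on both arrays, 3 were higher and 3 went opposite ways, with 5 past 1.5-fold, all lower. The sialyltransferase *St3gal4* (-1.64 and -1.51) and the core 2 branching enzyme *Gcnt1* (-1.45 and -1.65) were the lowest, and the initiating transferases *Galnt5* (0.52 and 0.14) and *Galnt4* (0.30 and 0.043) the highest.

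Genes of protein folding in the secretory pathway were divided. Of 8 measured, 4 were lower and 3 higher on both arrays. *Agr3*, the paralogue of *Agr2*, was the 1 gene past 1.5-fold, higher at 0.64 and 0.78, and the chaperone *Hspa5* had 0.37 and 0.32. *Xbp1*, the transcription factor of the unfolded protein response, had -0.26 and -0.60. Among 13 factors of the secretory lineage, the progenitor gene *Sox4* (1.04 and 0.80) and the crypt base factor *Sox9* (0.65 and 0.73) were past 1.5-fold higher, and *Klf4*, which is used in mature goblet cells and surface cells, was past 1.5-fold lower (-1.04 and -0.997). The median of this list was -0.051.

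Markers of other differentiated cells were lower in Axin2+ cells too. Of 9 surface enterocyte genes, 8 had lower signals on both arrays and the list median was -2.29, and all 7 measured enteroendocrine genes were lower with a median of -2.11, both below the median of -0.79 of the goblet and deep crypt secretory genes. In contrast, 6 of 7 stem cell genes and 9 of 10 mitosis genes were higher on both arrays. Of the Paneth cell list 4 of 6 genes were measured, 4 lower and 3 of them past 1.5-fold, with *Ang4*, an antimicrobial ribonuclease, at -1.41 and -1.41. *Lyz1*, 1 of these 3, was not well above background in Axin2+ cells on either array and passed the filter only through the Axin2- channels. The part of differing cell type shares in the member ratios was not tested.

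**Figure D2:**
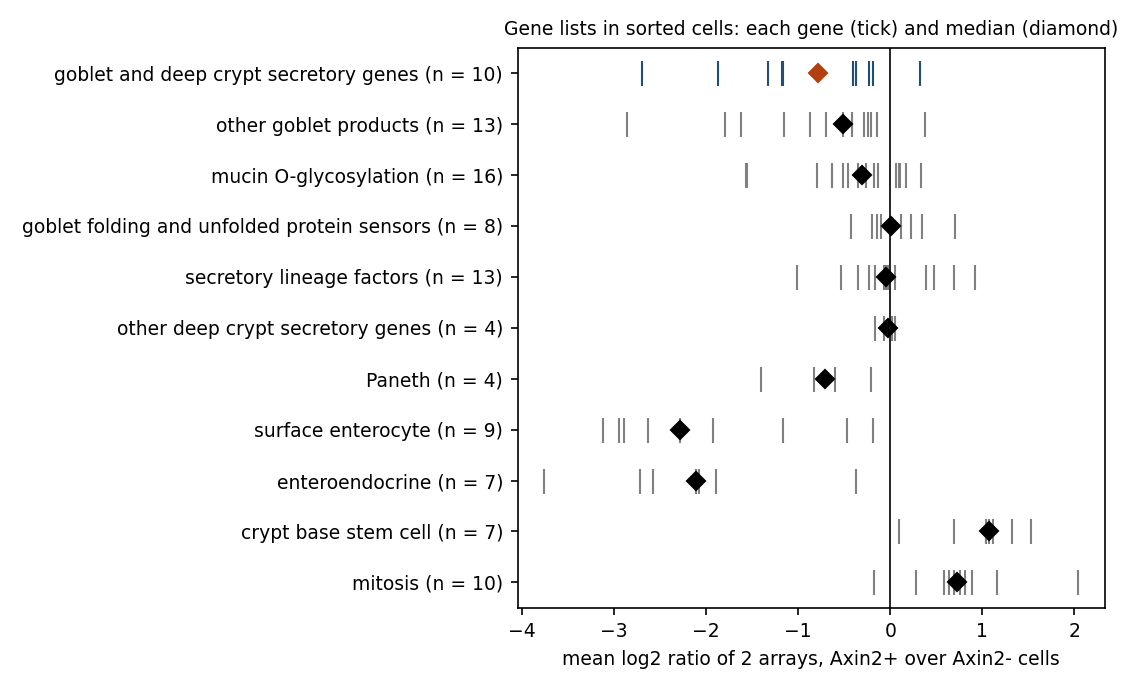
The mean log2 ratio of Axin2+ over Axin2- cells (horizontal axis) is plotted for every measured gene (ticks) of each list (rows, with the number of genes), with the median of the list as a diamond. The goblet and deep crypt secretory genes have a median of -0.79, the other goblet products of -0.51 and mucin O-glycosylation of -0.31, while stem cell and mitosis genes lie at 1.07 and 0.73.

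Next, the knockout arrays were examined to ask whether loss of stromal *Rspo3*, a secreted enhancer of Wnt signaling, was accompanied by a change in these genes. No member passed the test. Of the 10 genes, 7 could be tested in both pairs after outlier spots were left out, and 0 of 7 had an adjusted p below 0.05 in limma, where 0.234% of 15393 genes did (36 genes). At an unadjusted p below 0.05 in limma, 0 of the 7 members and 715 of all 15393 genes were found. The share over all genes is near the 0.05 that the threshold alone lets through, so 0 of 7 says little about the members. As a check on the test, *Lgr5* had log2 ratios of -1.28 in pair 1 and -2.61 in pair 2. Its mean was -1.94, with an SD of 0.95 between the pairs. The adjusted p of *Lgr5* was 0.105 in limma, so it did not pass. The mast cell gene *Cma1*, with a mean of 1.85 and an SD of 0.013, passed (adjusted p = 0.0257 in limma). The spread between the pairs thus counted as well as the size of the change. No ratio of *Rspo3* itself is given here. Lower *Lgr5* expression after *Rspo3* depletion is reported in the paper. Of the 7 members, 1 was higher in both pairs, 3 were lower in both and 3 went opposite ways. The share of all genes in each direction is not given here, so direction counts in the knockout are not read as results. None of the 7 members had a mean past 1.5-fold with both pairs alike, which 4.33% of all genes had. The median log2 ratio of *Rspo3* KO over control was 0.13 in pair 1 and -0.21 in pair 2, with all genes at -0.0024 and -0.025. The pairs had little in common over all genes, with Pearson's r of 0.033 between their log2 ratios across genes, which are not independent replicates. Since the dyes were reversed between the pairs, a dye effect and a difference between the pairs cannot be told apart for a gene of opposite ratios. With median centring in place of loess, all 7 tested members were higher in pair 1 and lower in pair 2. The medians of all genes measured did the same there, at 0.55 and -0.52. Against those medians, *Spdef* (0.12 and -0.77), *Fcgbp* (0.43 and -1.42), *Kit* (0.51 and -1.51) and *Atoh1* (0.53 and -0.79) were lower in both pairs. *Reg4* (1.02 and -0.56), *Muc2* and *Spink4* were above them in pair 1 and below them in pair 2.

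*Reg4* was the member that was higher in both pairs. Its levels were 12.03 and 12.40 in the *Rspo3* KO channels and 11.82 and 12.23 in the control channels, with log2 ratios of 0.21 and 0.17. The KO mouse of pair 1 lay below the control mouse of pair 2, so the groups overlapped. The mean was 0.19 ± 0.029 (SD, n = 2 pairs), with a 95% interval of limma from -0.34 to 0.72 and an adjusted p of 0.9998.

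*Kit*, the other deep crypt secretory gene, differed between the pairs. Its levels were 8.03 and 7.84 in *Rspo3* KO and 8.07 and 8.84 in control, so the control mouse of pair 2 was high and the other 3 mice lay close together. The log2 ratio was -0.044 in pair 1 and -1.004 in pair 2. On the 10 spots of each array it ranged from -0.13 to 0.033 and from -1.08 to -0.96, with SDs of 0.054 and 0.040. Spots of 1 array do not show the spread between arrays, since the same RNA on the 2 sorted-cell arrays gave *Kit* ratios of -0.0016 and -0.37. The mean was -0.52 ± 0.68 (SD, n = 2 pairs), the limma interval reached from -1.19 to 0.14, and the adjusted p was 0.9998. With the ratios of the extraction software, *Kit* had a mean of -0.64 and was past 1.5-fold.

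*Kit* is also the receptor of mast cells and of the interstitial cells of Cajal, and the labels describe the knockout RNA as that of colon and of no sorted cell type. Of 9 mast cell genes, 4 were measured and all 4 were higher in *Rspo3* KO in both pairs, while the other 5 did not pass the filter on dim probes. *Cpa3* and *Fcer1a*, of these 4, were not well above background in either control channel. They passed the filter only through the *Rspo3* KO channels, where they were higher, so their direction was partly set by the filter. *Cma1* and *Mcpt4* were well above background in all channels. The chymase *Cma1* had log2 ratios of 1.84 and 1.86 (adjusted p = 0.0257 in limma), and the chymase *Mcpt4* had 1.12 and 1.07 (adjusted p = 0.227). The 3 genes of interstitial cells of Cajal went opposite ways in the pairs, with the chloride channel *Ano1* at 0.23 and -0.37. The part of these cells in the *Kit* signal was not tested. In the sorted cells 2 of the 9 mast cell genes were measured, *Cma1* at -0.99 and -0.98 and the dim *Fcer1a* at -0.016 and -0.16. Of the interstitial cell genes, *Ano1* had -1.53 and -1.61 and *Etv1* had -0.36 and -0.50 there. Their part in the *Kit* ratio of the sorted cells was not tested.

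*Muc2* also went opposite ways. Its bright probe had levels of 12.65 and 12.67 in *Rspo3* KO and 12.28 and 12.87 in control, so that both KO mice lay between the control mice, and the log2 ratios were 0.37 and -0.20. The probe at base 1986 gave 0.73 and -0.54 and the probe at base 548 gave 0.49 and -0.29, so 3 of 3 probes were higher in pair 1 and lower in pair 2. For both of these dimmer probes, the control signal of pair 1 was not well above background. The mean of the bright probe was 0.085, with a limma interval from -0.49 to 0.66.

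Lower signals in both pairs were measured for *Spdef* and *Fcgbp*. *Spdef* had levels of 8.51 and 8.84 in *Rspo3* KO and 9.06 and 9.05 in control. Its log2 ratios were -0.54 and -0.21, the mean was -0.38 ± 0.24 (SD, n = 2 pairs), and the adjusted p was 0.9998 in limma, with an interval from -0.92 to 0.17. For *Fcgbp*, the bright probe was an outlier spot in pair 2, and the second probe gave -0.41 and -0.64 with an interval from -1.06 to 0.0095. *Fcgbp* levels on that probe were 12.80 and 13.12 in *Rspo3* KO and 13.21 and 13.76 in control. *Spink4* (0.29 and -0.065) and *Atoh1* (0.13 and -0.38) went opposite ways.

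The spots of *Zg16* in both pairs and those of *Agr2* and *Tff3* in pair 2 were flagged as non-uniform by the extraction software, and these genes had no other probe. With the flagged spots kept, an alternative added after the data had been seen, *Zg16* had log2 ratios of 0.64 and -0.46, *Agr2* of 0.35 and -0.35 and *Tff3* of -0.053 and -0.51, and the bright *Fcgbp* probe had -0.13 and -0.41. Of the 10 genes, 1 was then higher in both pairs, 4 were lower in both and 5 went opposite ways. In limma 0 of 10 passed the test, also at an unadjusted p below 0.05, where 695 of 15600 genes did. Among the 5 goblet genes of opposite direction, every one was higher in pair 1 and lower in pair 2.

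**Figure D3:**
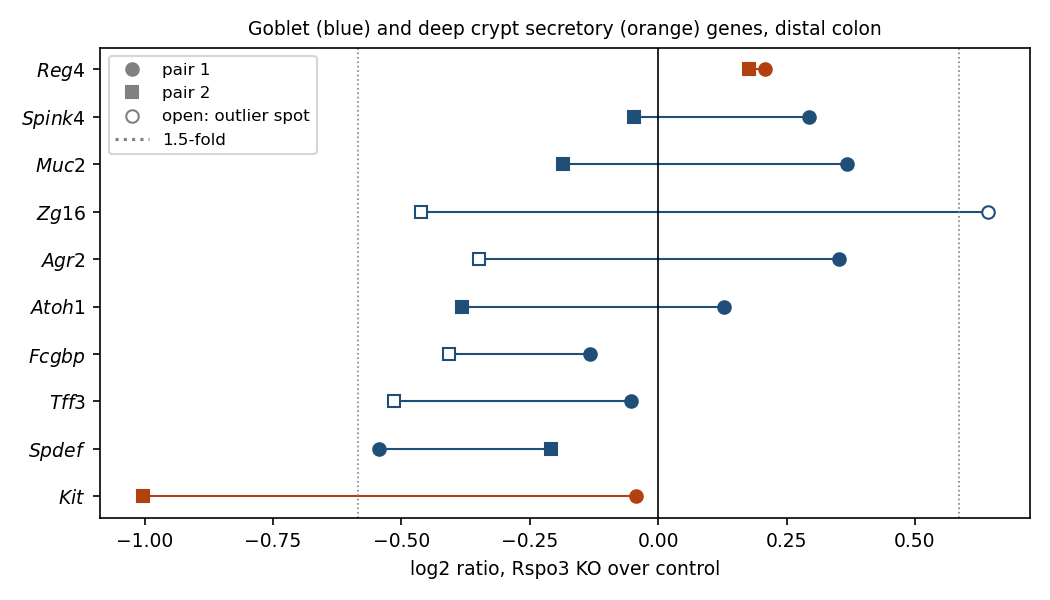
The log2 ratio of *Rspo3* KO over control (horizontal axis) is plotted for each of the 10 genes in pair 1 (circles) and pair 2 (squares), with outlier spots kept and drawn open, goblet genes in blue, deep crypt secretory genes in orange and dotted lines at 1.5-fold. Only *Reg4* is above 0 in both pairs, and *Kit* in pair 2 (-1.004) and *Zg16* in pair 1 (0.64) are the values past 1.5-fold.

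**Figure D4:**
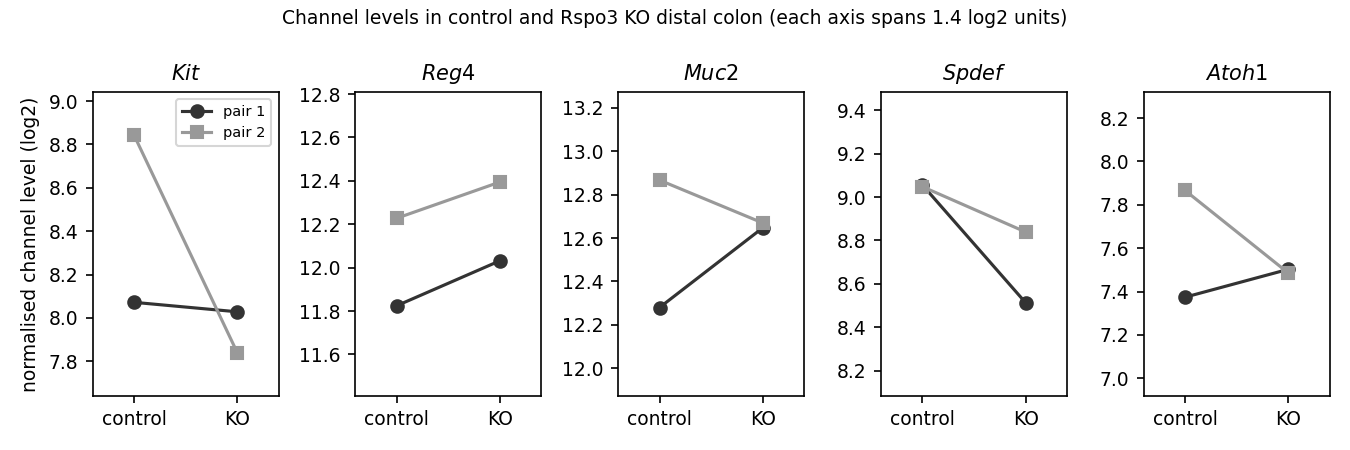
The normalised channel level (log2, vertical axes of equal span) of *Kit*, *Reg4*, *Muc2*, *Spdef* and *Atoh1* is plotted for the control and the *Rspo3* KO mouse of pair 1 (dark circles) and pair 2 (grey squares), joined by a line. The control mouse of pair 2 has the high *Kit* level (8.84).

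As in the sorted cells, *Reg4* and *Kit* did not move as a pair. *Reg4* was above *Kit* by 0.25 in pair 1 and by 1.17 in pair 2. The median of both minus the median of the 5 tested goblet genes was -0.047 and -0.21, and -0.13 and -0.048 with the outlier spots kept. Of the other deep crypt secretory genes, 3 of 4 were lower in both pairs. *Egf* had log2 ratios of -1.47 and -0.76 (adjusted p = 0.321 in limma), *Dll1* of -0.61 and -0.67 (adjusted p = 0.830) and *Dll4* of -0.21 and -0.19, while *Cd24a* went opposite ways at 0.33 and -0.44. None of the 4 passed the test, and 2 of 4 were past 1.5-fold lower in both pairs, where 2.47% of all genes were.

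None of the other secretory lists held a called gene. Of 8 measured goblet products, 4 were lower in both pairs, 1 was higher and 3 went opposite ways, with *Bcas1* the lowest at -0.75 and -0.47. *Retnlb* spanned -0.74 and 1.54, with the control signal of pair 2 not well above background. In mucin O-glycosylation 5 of 16 genes were higher and 4 lower in both pairs, and *Gcnt1* (-0.64 and -1.70, adjusted p = 0.408 in limma) and *Galnt12* (-0.52 and -0.90, adjusted p = 0.754) were past 1.5-fold lower. In the folding list *Agr3* (-0.58 and -1.10, adjusted p = 0.586) and *Creb3l4*, a membrane-bound transcription factor (-0.51 and -1.14, adjusted p = 0.668), were past 1.5-fold lower. Beside these values, 6 of 7 stem cell genes were lower in both pairs, and 4 of 5 measured smooth muscle genes were higher in both, with a median of 0.24. *Lgr5*, among the lower stem cell genes, was not well above background in either *Rspo3* KO channel and passed the filter only through the control channels. Whether tissue composition bears on the member ratios was not tested.

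The genes most like 3 of the members over the 4 ratios were found by Euclidean distance among 12624 genes measured on all arrays. Nearest to *Muc2* were *Zfp639* (distance 0.040), *Papola* (0.055) and *Rps27a* (0.060), which are genes of transcription, mRNA polyadenylation and the ribosome. Nearest to *Reg4* were *Slc6a8*, the creatine transporter (0.14), *Ang4* (0.16) and *Syt13* (0.16). Nearest to *Kit* were *Sox6* (0.15), *Slc33a1* (0.17) and *Prune1* (0.26). With 4 arrays, each distance rests on 4 values, and *Ang4* of the *Reg4* group had ratios of 0.30 and 0.16 in the knockout.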

How the data were processed

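The authors labelled cRNA made by oligo-dT-primed amplification with Cy3 and Cy5, hybridised it and extracted the scans with Agilent Feature Extraction. The authors deposited, per spot, the mean signal intensity and background intensity of each dye and a log10 ratio of Cy5 over Cy3 made by the software. The p-value and error the authors deposited with it come from 1 array and were not used. From the intensities, background was corrected with limma (version 3.58.1, R version 4.3.3) by normexp (offset 50, fitted without background-outlier spots), and each array's log2 ratios were then fitted by loess. Channel levels were scaled between arrays by their average intensity (Aquantile). Control and outlier spots were left out, spots of a probe were averaged, and ratios were turned to *Rspo3* KO or Axin2+ on top. The brightest probe stood for a gene if, on both arrays of an experiment, 1 or both of its channels were well above background. Between 53.1% and 60.3% of gene spots were well above background per channel. The knockout was tested against 0 with limma's lmFit and eBayes, and p-values of 15393 genes were adjusted by Benjamini-Hochberg (threshold 0.05), and 2 pairs limit its precision. Of 41174 probes, 27668 were named by accession, 5589 by symbol and 471 by synonym through a RefSeq table (GRCm38.p6), and 7446 kept the file's name. Members and gene lists were chosen with earlier results of these data known. All members are named, of each list up to 2 of the highest and 2 of the lowest genes, reference genes, and the 3 nearest genes of *Muc2*, *Reg4* and *Kit*. Labels name TRIzol for all arrays, whereas the methods name a spin column kit for the knockout. Alternatives were the software ratios, the series' value table of log10 ratios, no background correction, an offset of 16, all spots in the background fit, median centring, 2 other filters, the mean over probes, each probe by itself, other fold thresholds, each array left out and, added later, outlier spots kept.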

Additional observations from a re-analysis of the deposited data

How the results depend on the processing

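The 5 genes past 1.5-fold lower in Axin2+ cells were 5 in number under every setting run, including a 2-fold threshold, 1.5-fold on each array by itself and either array alone. In the knockout, 0 members passed the test in limma under every setting with a test, and 1 was past 1.5-fold alike with the software ratios or the value table, while leaving out a pair gave 0 to 2. The number of genes called over the whole array depended on the setting: 36 became 129 with the software ratios or the value table, 70 without background correction, 127 with an offset of 16, 1 with all spots in the background fit, 8 with median centring, 3 with the mean over probes and 0 in limma without the filter on dim probes, where 1204 of 27139 genes had an unadjusted p below 0.05. The cause was not tested. The difference between deep crypt secretory and goblet medians in the knockout, -0.13, was 0.026 with median centring, and that of the sorted cells, 0.076, lay between -0.076 and 0.23 when 1 array was left out. Leaving out a pair turned 3 knockout means, with *Muc2* between -0.20 and 0.37, *Spink4* between -0.065 and 0.29 and *Atoh1* between -0.38 and 0.13. Under median centring the median of all genes lay at 0.55 and -0.52 on the knockout arrays and at 0.76 and -0.75 on the sorted-cell arrays, which nearly cancels in the mean of both dyes. The knockout test is itself on the ratio within each pair of mice. Beyond that test, no paired analysis was possible because no block remains to be fitted.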
